A study of Mus musculus with 12 samples.

Results

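The 6 genes described here, Sprr1a, Gap43, Sox11, Ecel1, Flrt3 and Stmn4, are known from work on injured neurons and are grouped as axon regeneration-associated genes. They were taken by name from an FPKM table of 54532 genes (FPKM is fragments per kilobase of gene, scaled to the sequenced total, so a level corrected for gene length), and all 6 names matched 1 row each. RNA of mouse brain tissue was sequenced in 12 libraries that fall into 4 groups of 3. Control mice are titled PBS and labelled untreated. Treated mice received photodynamic therapy (PDT): 20 mg/kg of 5-ALA (5-aminolevulinic acid, which cells convert to a light-sensitive porphyrin), then, after 30 min, light from a 635 nm laser at 20 J/cm2. Their brains were taken 1.5 h, 12 h or 48 h later. All mice carry the same label of strain, C57BL/6, while the tissue label of the same mice reads BALB/c; age, sex and the brain region sampled are not given in the sources used here. The labels do not say whether each library came from its own mouse, so p-values measure the spread between these libraries, which may be in part technical.

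When the axon of a peripheral neuron is cut, the cell body switches on a set of genes that supports regrowth: transcription factors such as Atf3, Jun and Sox11, and effectors that reach the axon, the growth cone and the cytoskeleton. Most neurons of the adult brain turn on this program weakly after damage. Several of these genes are also used elsewhere, Sprr1a above all, which is best known as a building block of the tough outer envelope of skin cells.

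The 12 libraries hold between 15348579 and 17444654 reads recovered from the FPKM values. Pan-neuronal markers were high in all of them (8 genes, summed level 739 to 1225 FPKM). Replicates 1 and 3 of the 1.5 h group stood apart: the mitochondrial share of reads was 12.4% and 9.14% there and at most 6.14% elsewhere, and their short genes read higher relative to long genes (slope of level on length -0.104 and -0.06 log2 units per doubling of length, against -0.009 to 0.041 elsewhere). Changes at 1.5 h are therefore given with and without these libraries. Without both, replicate 2 alone is left at 1.5 h, so only the size of the change is given. In tissue RNA, a change in the number of cells of a type and a change of RNA per cell cannot be told apart.

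The 6 genes did not move as one group. Across all 4 groups, 5 of the 6 differed in limma's F test at a false discovery rate (FDR) of 0.05, against 38.4% of all 17664 genes tested, and Gap43 did not (adjusted p = 0.142). Sprr1a entered this test only through its 12 h and 48 h libraries, and the 6 were chosen with earlier results of these data known. Distinct patterns can be read from the levels: Sprr1a and Ecel1 were highest at 48 h, Sox11 and Flrt3 were highest at 12 h, and Stmn4 was high in some 1.5 h libraries and at 12 h and back near control at 48 h.

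**Figure D1:**
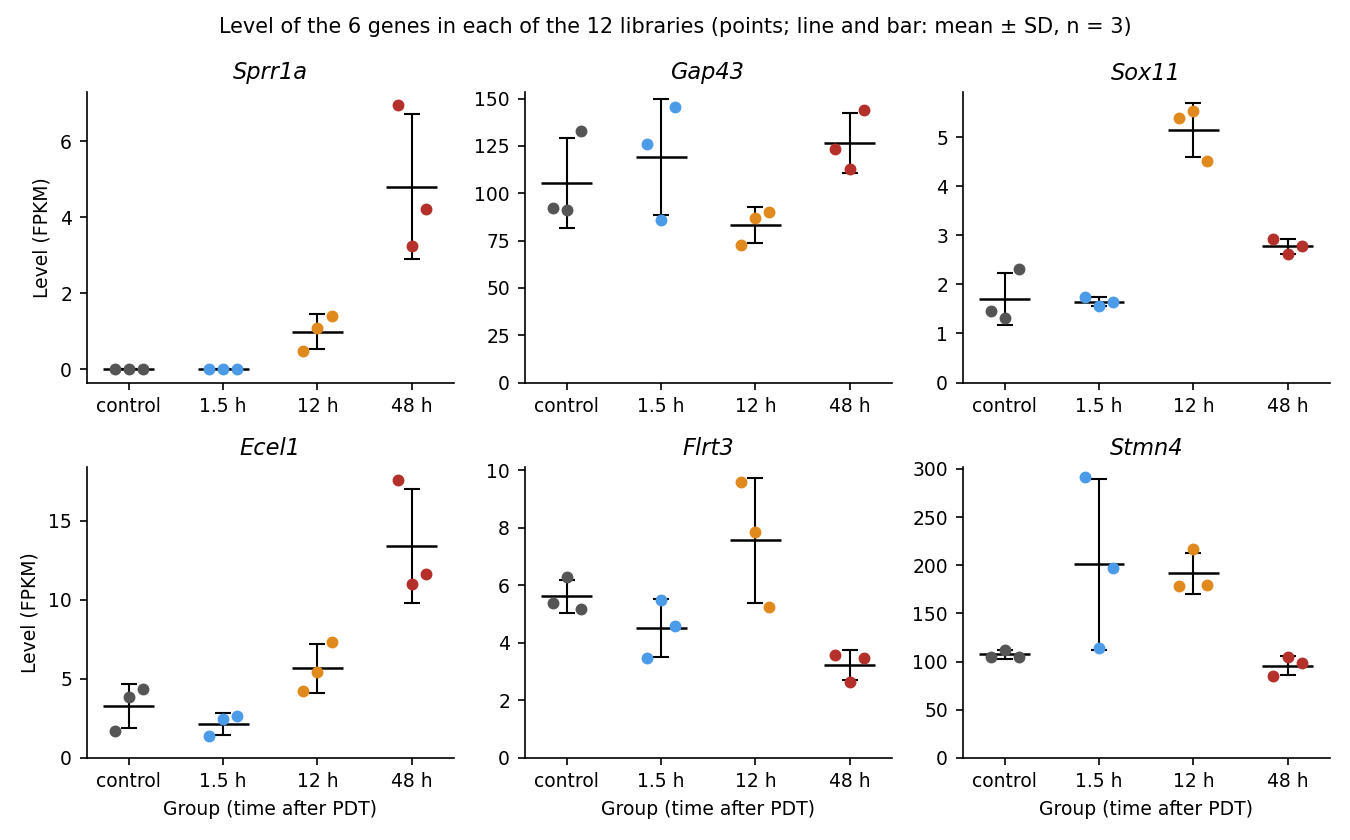
Level in FPKM (y axis, from 0) of each of the 6 genes in the 12 libraries, by group (x axis); points are libraries, and the line and bar are the mean ± SD of 3. Sprr1a is at 0 in the 6 control and 1.5 h libraries, Sox11 peaks at 12 h with all 3 libraries above 4.5 FPKM, and Stmn4 at 1.5 h spreads from 114 to 291.

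Sprr1a (small proline-rich protein 1A; ENSMUSG00000050359) lies on the minus strand at chr3:92483952-92485895 of the mouse build GRCm38. It is a cornified envelope precursor in stratified epithelia, and it is also known as a gene that injured sensory neurons turn on strongly. The stretch just before the gene is shown because it carries a pair of matches to the AP-1 motif, TGACTCA or its reverse complement TGAGTCA, the letters bound by Jun and its partners. The RefSeq promoter window (GRCm38.p6, 250 bases before to 50 after the start site) is printed from chr3:92485896-92486131, minus strand, which leaves out the transcribed bases; capitals mark the matches. The same stretch of Sox11 (chr12:27342719-27342968, minus strand), which also rose after PDT, is set below it and holds none.

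Sprr1a: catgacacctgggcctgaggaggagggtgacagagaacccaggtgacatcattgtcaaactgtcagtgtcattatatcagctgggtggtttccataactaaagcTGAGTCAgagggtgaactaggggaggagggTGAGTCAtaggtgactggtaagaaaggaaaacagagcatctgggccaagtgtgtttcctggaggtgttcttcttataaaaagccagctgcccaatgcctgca
Sox11: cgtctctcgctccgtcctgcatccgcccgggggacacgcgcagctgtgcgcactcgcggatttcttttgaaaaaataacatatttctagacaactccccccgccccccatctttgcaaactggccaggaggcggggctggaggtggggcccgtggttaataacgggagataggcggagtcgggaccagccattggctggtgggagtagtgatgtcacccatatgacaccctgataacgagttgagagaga

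The matches in Sprr1a begin 146 and 116 bases before the RefSeq start site. Of 32851 RefSeq promoter windows of the same length, 5.2% hold at least 1 match to TGACTCA and 0.222% hold 2 or more. Windows were at hand for 4 of the 6 genes, and those of Sox11, Ecel1 and Flrt3 hold no match to this motif. Matches to the cyclic AMP response element TGACGTCA (1.79% of windows) and to the STAT motif TTCNNNGAA (8.3% of windows) were searched on both strands too, and none of the 4 windows holds either. A match is a description of the letters, not a bound site. Jun, the AP-1 subunit, went from 16.1 ± 1.41 FPKM in control to 57.3 ± 9.69 at 1.5 h, 113 ± 16.8 at 12 h and 35.7 ± 2.39 at 48 h (mean ± SD, n = 3 each), and it rose at each time (adjusted p = 0.000792, 2.27e-06 and 0.00108, limma). Without replicates 1 and 3 of the 1.5 h group, which leaves replicate 2 alone there, the log2 change of Jun at 1.5 h was 1.83.

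Sprr1a RNA was read in no control library and in no 1.5 h library. In control, a count of 0 allows up to 3 reads, which is 0.211 to 0.215 FPKM in those libraries. At 12 h, replicates 1 and 2 and the library without a number held 6, 14 and 18 reads, or 0.495, 1.08 and 1.40 FPKM. At 48 h, replicates 1, 3 and 4 held 105, 48 and 64 reads, or 6.95, 3.25 and 4.23 FPKM. All 12 h libraries lay above all control libraries, and all 48 h libraries lay above all 12 h libraries. Against the floor of 3 reads per library, the mean was at least 4.61-fold higher at 12 h and at least 22.4-fold higher at 48 h than in control. Sprr1a rose at 12 h (adjusted p = 0.00964) and at 48 h (adjusted p = 4.03e-05), and between 12 h and 48 h the mean went up 4.86-fold (log2 change 1.52 ± 0.22, SE; adjusted p = 0.00105). At 48 h its change ranked 68th among the rises of 17664 genes, although the level reached stays low beside Gap43 or Stmn4. The SE and p-values rest on a spread shared by all groups. The control and 1.5 h libraries of Sprr1a, all at 0, make that spread narrower than it is at 12 h and 48 h. The 12 h call rests on few reads and was lost with the replicate number as a block (adjusted p = 0.135). Sprr1a entered the test only through its 12 h and 48 h libraries, since a tested gene needs more than 0.5 FPKM in 3 libraries.

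No other member of its family was seen to move. Of the other 14 small proline-rich protein genes, 10 had no read in any library, and the most that 1 gene had in 1 library was 3 reads; none passed the filter on low values.

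Keratins of skin were read in the same libraries as Sprr1a. Krt16, a keratin of wounded skin, was at 0 in every control library and at 2.97 to 6.23 FPKM at 48 h, and it rose (log2 change 2.46 ± 0.2, adjusted p = 2.04e-05). Krt5 averaged 0.00860 FPKM in control and 0.416 at 48 h, Krt14 went from 0 to 0.173 and Krt6a from 0 to 0.244, each too low for the filter. Krt10, a keratin of differentiated epidermis, fell from 3.24 to 1.73 FPKM at 48 h (adjusted p = 0.0141), and Lor, which makes loricrin, was at 2.56 in control and 2.69 at 48 h. Of the 10 keratinocyte markers, 4 were tested at 48 h, 1 rose and 1 fell (7.5% and 5.01% of all tested genes). Krt16 passed the filter on low values only through its 48 h libraries, so its place among the 4 is tied to its rise. Their summed level was 5.97 to 7.01 FPKM in control, 8.1 to 13.2 at 1.5 h, 5.36 to 6.99 at 12 h and 10.3 to 11.9 at 48 h. At 1.5 h, replicates 1 and 3, which stand apart, summed to 12.9 and 13.2, and replicate 2 to 8.1. Krt10, Lor and Krt1 averaged 5.01, 5.34 and 1.03 FPKM at 1.5 h. Krt16 averaged 0.0304 there, and Krt5, Krt14 and Krt6a were at 0, as was Sprr1a. Dsg3, which makes a desmosomal cadherin of keratinocytes, was at 0 in all 12 libraries, and Ivl and Flg had at most 2 reads in a library. The part of keratinocyte RNA in the level of Sprr1a was not tested.

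**Figure D2:**
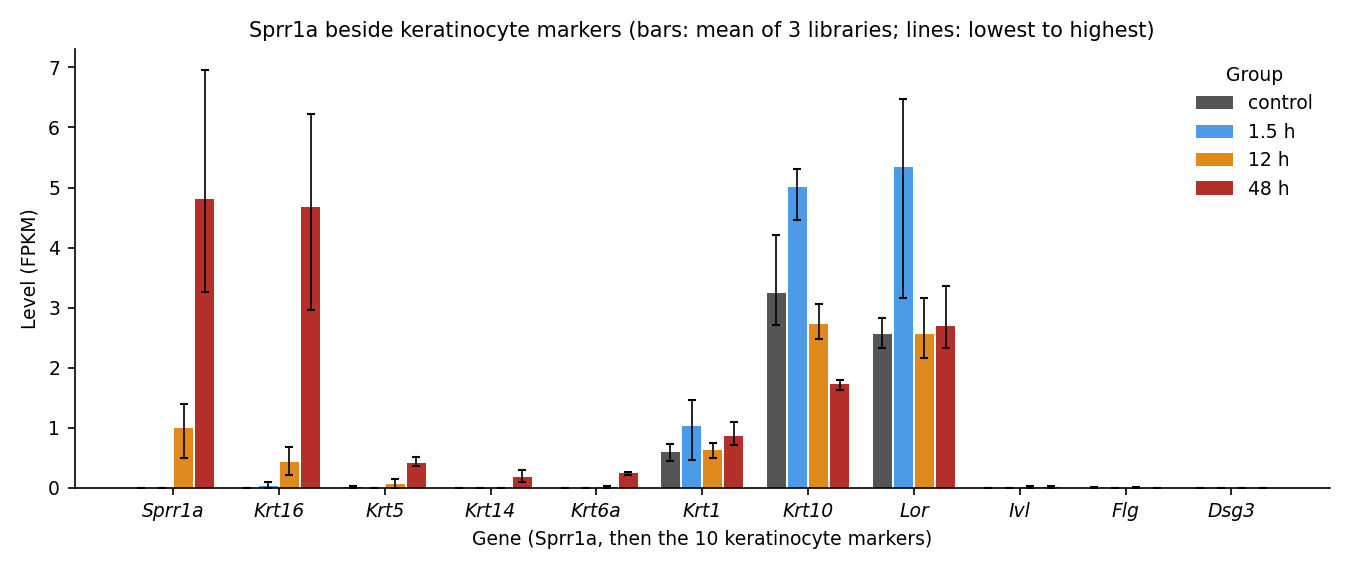
Mean level in FPKM (y axis, from 0) of Sprr1a and 10 keratinocyte markers (x axis) in the 4 groups; lines run from the lowest to the highest of 3 libraries. Sprr1a and Krt16 are both highest at 48 h, with means of 4.81 and 4.68, while Krt10 is lowest at 48 h and Dsg3 is at 0 throughout.

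Ecel1 (endothelin-converting enzyme-like 1, also called damage-induced neuronal endopeptidase; ENSMUSG00000026247; chr1:87147655-87156521, minus strand) encodes a membrane protein of the neprilysin family that injured neurons are known to switch on. In control, replicates 1, 2 and 4 read 1.7, 3.84 and 4.33 FPKM. At 1.5 h, replicates 1, 2 and 3 read 1.36, 2.43 and 2.68, inside or just under the control range. At 12 h the values were 4.25, 5.43 and 7.32, with the lowest below the highest control library. At 48 h, replicates 1, 3 and 4 read 17.6, 11 and 11.6, every one above the 9 libraries of the other groups.

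Ecel1 thus stood 4.07-fold higher in mean level at 48 h than in control (log2 change 1.78 ± 0.29, 95% confidence interval 1.15 to 2.41), and it rose (adjusted p = 0.00231). The 12 h mean was 1.72-fold that of control, and this difference did not pass the test (log2 change 0.67 ± 0.29, adjusted p = 0.125). Ecel1 rose from 12 h to 48 h (log2 change 1.11 ± 0.29, adjusted p = 0.024), a call that was lost when 12 h replicate 1 or 2 or 48 h replicate 1 or 4 was left out. The rise from control to 48 h passed in each of the 23 alternatives run, with log2 changes of 1.47 to 2.1.

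Of the 4 tested relatives of Ecel1, 1 rose at 12 h and 1 fell at 48 h. Of all tested genes 13.3% rose at 12 h and 5.01% fell at 48 h. Ece1, which cleaves big endothelin, rose at 12 h (11.4 to 23.1 FPKM, log2 change 0.96 ± 0.2, adjusted p = 0.00661) and had no call at 48 h (15.1 FPKM, adjusted p = 0.275). Mme, which encodes neprilysin itself, fell at 48 h (1.6 to 0.313 FPKM, adjusted p = 0.038). The comparison with family relatives within a library, here and for the other genes below, was added after the data were seen. Within each library, Ecel1 minus the mean of Ece1 and Ece2 was -0.2 ± 0.41 log2 units in control and 1.43 ± 0.23 at 48 h (SD, n = 3), and the groups did not overlap. An exact permutation test of 3 against 3 libraries cannot go below p = 0.1, the value it gave here (two-sided, 0.2 adjusted over 12 such tests). At 12 h this quantity was -0.004 ± 0.32, the groups overlapped, and the exact permutation test gave p = 0.6.

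Markers of peripheral sensory neurons, cells known to turn on Sprr1a when injured, were looked at beside Sprr1a and Ecel1. Calca, the precursor of the peptide CGRP, rose at 48 h (0.997 to 3.55 FPKM, log2 change 1.26 ± 0.35, adjusted p = 0.0382). It was the 1 of 4 tested markers that did, where 7.5% of all tested genes rose. The 7 markers summed to 1.93 to 5.52 FPKM in control and 6.96 to 7.9 at 48 h, while Scn10a and Trpv1, which mark pain-sensing neurons, had at most 13 and 5 reads in any library. The part of such cells in the rise of Sprr1a and Ecel1 was not tested. The summed levels of brain cell and region markers differed at 48 h too. Pan-neuronal markers summed to 978 to 1068 FPKM in control and 739 to 911 at 48 h, astrocyte markers to 275 to 324 and 632 to 863, and microglia markers to 80.6 to 90.8 and 261 to 309. Among region markers, the sum went from 145 to 180 FPKM in control to 64.2 to 106 at 48 h for cortex, from 171 to 385 to 101 to 144 for striatum, and from 2.42 to 9.23 to 16.3 to 22.4 for hypothalamus. A sum is weighted to its highest genes. Of the tested genes, 0 of 8 pan-neuronal markers were called at 48 h. Of 6 astrocyte markers 3 rose and 1 fell, and of 6 microglia markers 4 rose. For regions, 2 of 7 cortex and 2 of 7 striatum markers fell, and 1 of 4 hypothalamus markers rose. Of all tested genes 7.5% rose and 5.01% fell. C1qa of microglia went from 35.5 FPKM in control to 213 at 48 h, and P2ry12 from 12.7 to 7.86. The part of cell makeup and of the region sampled in the 48 h rises was not tested. Over the 12 libraries, the log2 levels of Sprr1a and Ecel1 had a Pearson correlation of 0.94, given as a description, since the points share the 4 groups.

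Sox11 (ENSMUSG00000063632; chr12:27334264-27342574, minus strand) is a transcription factor of the SoxC group, active in newborn neurons and again in regenerating sensory neurons. Its control values were 1.47, 1.32 and 2.32 FPKM in replicates 1, 2 and 4, and its 1.5 h values 1.73, 1.56 and 1.65 in replicates 1, 2 and 3. At 12 h it read 5.4, 5.53 and 4.53 FPKM, and at 48 h 2.92, 2.62 and 2.79. The 3 groups of control, 12 h and 48 h libraries did not overlap one another, and the 1.5 h libraries lay inside the control range.

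Sox11 rose 3.03-fold in mean level at 12 h (log2 change 1.2 ± 0.14, 95% confidence interval 0.9 to 1.5, adjusted p = 0.000173), and this call held in all 23 alternatives. It fell from 12 h to 48 h (log2 change -0.7 ± 0.14, adjusted p = 0.00618). At 48 h it was still 1.63-fold above control (log2 change 0.5 ± 0.14, adjusted p = 0.0368), and here the call is close to the threshold. It was lost in 11 of 23 alternatives, among them leaving out control replicate 1 or 2, 1.5 h replicate 3, 12 h replicate 1 or 2, or any 48 h library, with adjusted p from 0.00919 to 0.159 over all 23.

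Of the other SoxC genes, 1 rose and 1 fell at 12 h. Sox4 rose (3.1 to 5.04 FPKM, log2 change 0.55 ± 0.14, adjusted p = 0.0145), and Sox12 fell at the same time (5.52 to 2.59 FPKM, log2 change -0.85 ± 0.14, adjusted p = 0.00128). Neither was called at 48 h. Sox11 minus the mean of Sox4 and Sox12 within a library went from -0.95 ± 0.33 log2 units in control to 0.4 ± 0.13 at 12 h (SD, n = 3), with no overlap (exact permutation p = 0.1, the smallest the design allows; 0.2 adjusted over the 12 tests). Markers of immature neurons, the other cells known for Sox11, were counted beside it: of 8 tested, 2 rose (Sox4 and Cd24a) and 1 fell (Neurod1) at 12 h, and 0 rose and 4 fell at 48 h. Of all tested genes 13.3% rose and 7.9% fell at 12 h, and 7.5% and 5.01% at 48 h. Cd24a went from 2.68 FPKM in control to 10.5 at 12 h (adjusted p = 0.00784). Dcx, the standard marker of young migrating neurons, was at 2.38 FPKM in control, 1.31 at 12 h and 1.04 at 48 h, and it fell at 48 h (adjusted p = 0.0224).

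**Figure D3:**
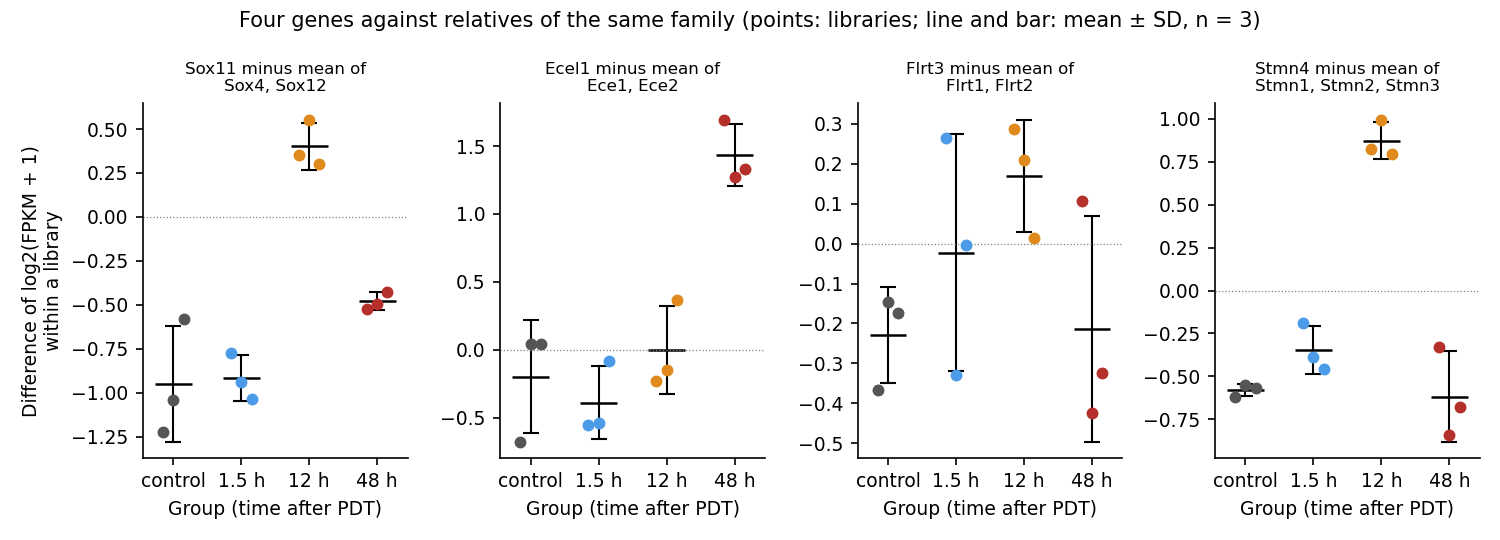
Level of Sox11, Ecel1, Flrt3 and Stmn4 minus the mean level of relatives of the same family in the same library, in log2(FPKM + 1) units (y axis), by group (x axis); points are libraries, and line and bar the mean ± SD of 3. Sox11 and Stmn4 stand above their relatives at 12 h and below them in the other groups, and Ecel1 stands clear at 48 h.

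Gap43 (growth-associated protein 43; ENSMUSG00000047261; chr16:42248442-42340651, minus strand) is a phosphoprotein of the growth cone membrane and the most used marker of axon growth; in the adult brain it stays on in many neurons. Per length, its level was far above that of Sprr1a, Sox11, Ecel1 and Flrt3 in every library. Control replicates 1, 2 and 4 read 92.4, 91.3 and 133 FPKM, and 1.5 h replicates 1, 2 and 3 read 126, 85.7 and 146. The 12 h libraries read 72.5, 87 and 90.1, and the 48 h libraries 123, 113 and 144. The 12 h libraries lay just under the control range and the 48 h libraries overlapped it.

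None of the changes of Gap43 passed the test. The log2 change from control at 1.5 h was 0.16 ± 0.22. It was -0.28 without 1.5 h replicates 1 and 3, which leaves replicate 2 alone there, and -0.51 after quantile normalization. The change was -0.32 ± 0.22 at 12 h (adjusted p = 0.345) and 0.28 ± 0.22 at 48 h (adjusted p = 0.48). The 95% confidence interval at 48 h, -0.21 to 0.76, leaves room for both a small fall and a rise of moderate size, so these libraries do not show that Gap43 stayed level. From 12 h to 48 h the mean went from 83.2 to 127 FPKM with no overlap of libraries, and this difference too missed the threshold (log2 change 0.6 ± 0.22, adjusted p = 0.0929); it passed in 4 of 23 alternatives, among them leaving out 1.5 h replicate 2. Basp1, the growth cone protein that most resembles GAP43 in function, was at 253 FPKM in control, 272 at 12 h and 253 at 48 h, with no call.

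Flrt3 (fibronectin leucine rich transmembrane protein 3; ENSMUSG00000051379; chr2:140650914-140671469, minus strand) is an adhesion molecule that binds latrophilins and Unc5 receptors and steers growing axons. Its gene lies inside Macrod2 on the opposite strand, and their exons do not overlap. Flrt3 read 5.4, 6.28 and 5.18 FPKM in control replicates 1, 2 and 4, and 3.49, 5.5 and 4.6 in 1.5 h replicates 1, 2 and 3. At 12 h it read 9.59 and 7.86 in replicates 1 and 2 and 5.24 in the library without a number, so that 1 library stayed in the control range. At 48 h it read 3.59, 2.64 and 3.47, below every control library.

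Against control, the change of Flrt3 did not pass at 12 h (log2 change 0.34 ± 0.2, adjusted p = 0.264) or at 48 h (-0.65 ± 0.2, adjusted p = 0.0567). The 48 h difference sits at the edge of the threshold: it passed in 10 of 23 alternatives, among them limma-voom on recovered reads and leaving out 1.5 h replicate 1 or 2, 12 h replicate 1 or the unnumbered 12 h library, with adjusted p from 0.0161 to 0.195. Flrt3 fell from 12 h to 48 h, from a mean of 7.56 to 3.23 FPKM (log2 change -0.99 ± 0.2, adjusted p = 0.0068). Its relatives had lower means at 48 h as well, Flrt1 at 4.89 and then 3.15 FPKM (adjusted p = 0.18) and Flrt2 at 9.25 and then 4.84 (adjusted p = 0.0877), with no call for either.

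Of 9 receptors and partners of Flrt3 tested, 1 rose and 0 fell at 12 h and at 48 h alike (all tested genes: 13.3% and 7.9%, then 7.5% and 5.01%), in both cases Fgfr1, a growth factor receptor with which FLRT proteins interact (6.15 FPKM in control, 13.7 at 12 h and 13.1 at 48 h; adjusted p = 0.00855 and 0.0172). Unc5b read 4.69 FPKM in control and 9.11 at 12 h, and this missed the threshold (adjusted p = 0.0739).

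Stmn4 (stathmin 4; ENSMUSG00000022044; chr14:66344296-66361680, plus strand) encodes a neuronal protein that binds tubulin and loosens microtubules. Control replicates 1, 2 and 4 were close together, at 104.66, 112 and 105 FPKM. The 1.5 h libraries were far apart: replicates 1 and 3, which stand apart as described, read 291 and 197, and replicate 2 read 114. The 12 h libraries read 179, 216 and 180. At 48 h the values were 84.6, 104.63 and 98.2, and the highest of them was just under the lowest control library, 104.66.

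In mean level Stmn4 was 1.87-fold above control at 1.5 h and 1.79-fold above control at 12 h, and neither difference passed (adjusted p = 0.103 and 0.0538). At 1.5 h the log2 change was 0.8 ± 0.27. It was 0.09 without replicates 1 and 3, which leaves replicate 2 alone, and 1.15 ± 0.17 without replicate 2 (adjusted p = 0.000601). After quantile normalization it was 0.05 ± 0.11 (adjusted p = 0.76). The mitochondrial share and the length slope moved with the level of Stmn4 over the 1.5 h libraries, and their part in it was not tested. At 12 h the log2 change was 0.83 ± 0.27 with all 3 libraries above all control libraries; it passed in 9 of 23 alternatives, among them limma-voom and leaving out 1.5 h replicates 1 and 3 or 1.5 h replicate 2, with adjusted p from 0.000781 to 0.227. Stmn4 fell from 12 h to 48 h (log2 change -0.99 ± 0.27, adjusted p = 0.0317), a call lost in 9 of 23 alternatives, which include leaving out control replicate 1 or any 12 h or 48 h library.

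Mean levels of Stmn4 and of its relatives lay on opposite sides of control at 12 h, and none of these 4 changes passed the test. Stmn1 had means of 165 FPKM in control and 103 at 12 h (log2 change -0.68 ± 0.23, adjusted p = 0.0555). Stmn2, a stathmin of growing axons, had 56.1 and 36.4 (adjusted p = 0.12), and Stmn3 had 446 and 297 (adjusted p = 0.315). For each of these relatives all 12 h libraries lay below all control libraries, as did those of 26.2% of all tested genes. Within a library, Stmn4 minus the mean of the other 3 was -0.62, -0.55 and -0.57 log2 units in control replicates 1, 2 and 4. At 12 h it was 0.83 and 1 in replicates 1 and 2 and 0.8 in the unnumbered library, and at 48 h -0.33, -0.84 and -0.68. Only the 12 h libraries were above 0. The difference between 12 h and control was 1.45 (SD 0.11 and 0.04, n = 3). The exact permutation test gave p = 0.1, the smallest it can give (0.2 adjusted over the 12 tests), so it cannot decide here.

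The changes from control can now be read side by side. At 1.5 h none of the 6 genes passed (limma, FDR 0.05; 1 of 6, Stmn4, had an unadjusted p under 0.05), where 0.555% of all tested genes did. Without 1.5 h replicates 1 and 3, which leaves replicate 2 alone there, log2 changes ran from -0.28 (Gap43) to 0.09 (Stmn4). At 12 h, 2 of 6 rose, Sprr1a and Sox11, and 0 fell; of all tested genes 13.3% rose and 7.9% fell. At 48 h, 3 of 6 rose, Sprr1a, Sox11 and Ecel1, and 0 fell, where 7.5% and 5.01% of all tested genes did. Sprr1a passed the filter only through its 12 h and 48 h libraries, so its place in these and later counts is tied to its rise. The 6 were chosen with earlier results of these data known, so the shares are no test of the set. Replicates 1 and 3 of the 1.5 h group enter the common estimate of spread. Without them, calls at 12 h and 48 h were more frequent over all genes and among the 6 alike. That count of members is not read as a result about the 6. Counted by libraries that do not overlap, 1 of 6 was higher than control at 1.5 h (14.6% of all tested genes), 3 were higher and 1 lower at 12 h (28.2% and 26.2%), and 3 were higher and 2 lower at 48 h (21.1% and 22%). The median log2 change of the 6 was -0.01, 0.75 and 0.39 at the 3 times, and that of all tested genes was 0.02, 0 and 0. The comparisons share their control libraries, so they are not independent of each other.

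**Figure D4:**
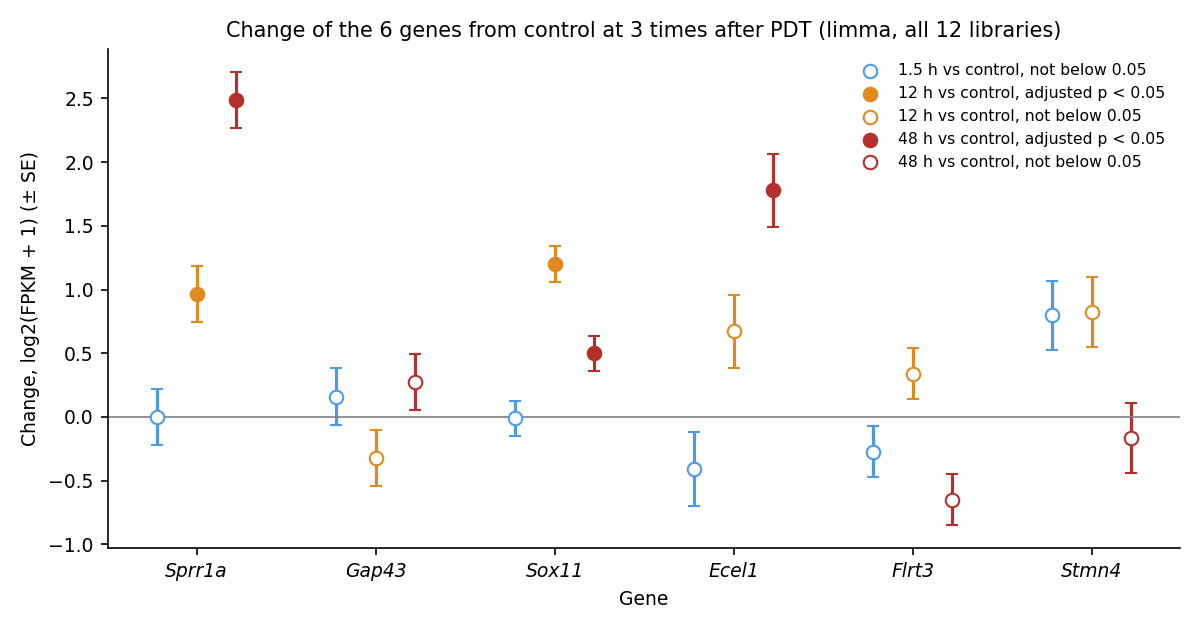
Change from control on the log2(FPKM + 1) scale (y axis, ± SE from limma) for each gene (x axis) at 1.5 h, 12 h and 48 h; filled points have an adjusted p below 0.05. Filled points are Sprr1a and Sox11 at 12 h and Sprr1a, Sox11 and Ecel1 at 48 h; Gap43, Flrt3 and Stmn4 have open points at every time.

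The treated groups were also compared with each other. From 1.5 h to 12 h, 4 of 6 rose, Sprr1a, Sox11, Ecel1 and Flrt3, and 0 fell (16.9% of all tested genes rose and 16.3% fell). Of these 4 calls, that of Sox11 alone held in all 23 alternatives. Stmn4, not called here, was called with quantile normalization, and its log2 change ran from -0.33 to 0.74 over the 23. Without 1.5 h replicates 1 and 3, 1 library is left at 1.5 h, so calls were not counted in this comparison. From 12 h to 48 h, 2 of 6 rose, Sprr1a and Ecel1, and 3 fell, Sox11, Flrt3 and Stmn4, where 5.88% of all genes rose and 9.73% fell. Calls without 1.5 h replicates 1 and 3 were more frequent over all genes and among the 6 alike. The count of members there is not read as a result about them. From 1.5 h to 48 h, 3 rose, Sprr1a, Sox11 and Ecel1, and 1 fell, Stmn4, with 8.91% and 8.87% of all genes. Without 1.5 h replicates 1 and 3, 1 library is left at 1.5 h, so calls were not counted in this comparison either.

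The genes around these 6 in the regrowth program were counted from fixed lists. Of 10 transcription factors known for this program, 2 rose at 1.5 h (Atf3 and Jun), 8 at 12 h and 5 at 48 h, and 0 fell; of all tested genes 0.419%, 13.3% and 7.5% rose. Without 1.5 h replicates 1 and 3, which leaves 1 library there, the log2 changes at 1.5 h were 1.83 for Jun and 2.66 for Atf3. Atf3, the classic marker of an injured neuron, read 0.203 ± 0.08 FPKM in control, 11.2 ± 5.28 at 1.5 h, 150 ± 23.8 at 12 h and 7.27 ± 4.71 at 48 h (mean ± SD, n = 3). It was thus at its highest when Sox11 was, and before Sprr1a and Ecel1 were at theirs. Atf3 entered the test only through treated libraries, its control level being under the filter, so its place in these counts is tied to its rise. Listed genes low in control, here and among the effectors below, can enter the same way. Smad1 rose at 12 h (4.43 to 11.8 FPKM, adjusted p = 0.000303) and was back at 4.42 at 48 h, and Klf7 and Creb1 were called at no time against control. These are levels of whole tissue and do not show which cells made the RNA. At 12 h, 3 of 6 endothelial markers rose and 1 fell, and 2 of 6 astrocyte markers rose and 0 fell. Of all tested genes 13.3% rose and 7.9% fell. The part of such cells in the counts was not tested.

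Of 20 effectors that injured neurons are known to induce, 2 rose at 1.5 h, 12 at 12 h and 14 at 48 h, and 0 fell, beside the same shares of all tested genes. Without 1.5 h replicates 1 and 3, which leaves 1 library there, 19 of the 20 were tested, and calls at 1.5 h are not counted. Gal, the neuropeptide galanin, read 0.91 FPKM in control, 0.94 at 1.5 h, 2.34 at 12 h and 64.8 at 48 h, and it rose at 48 h (log2 change 5.16 ± 0.33, adjusted p = 5.99e-06), so that like Sprr1a and Ecel1 it was highest at 48 h. Bdnf, a neurotrophin, was like Sox11 higher at 12 h than at 48 h, with 2.95 FPKM in control, 40.1 at 12 h and 15.1 at 48 h (adjusted p = 4.33e-06 and 0.00014). Several of the list are also made by glia and immune cells, Cd44, Lgals3 and Tnc among them. Microglia markers moved at the same times: of 6, 4 fell at 12 h and 4 rose at 48 h (7.9% and 7.5% of all tested genes). The part of those cells in the counts was not tested.

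Gap43 belongs by role with the growth cone genes. Of 15 on that list, 0 were called at 1.5 h; 1 rose (Nrn1) and 1 fell (Marcks) at 12 h; 1 rose (Tubb2b) and 1 fell (Dcx) at 48 h. Among all tested genes the shares were 13.3% and 7.9% at 12 h, and 7.5% and 5.01% at 48 h. Tubb2b, a neuronal beta tubulin, read 29.5 FPKM in control and 86.9 at 48 h (log2 change 1.54 ± 0.23, adjusted p = 0.00131), and Basp1 and Marcksl1 were without a call. Of 14 genes known as brakes on axon growth, 2 rose and 1 fell at 12 h and 2 rose and 2 fell at 48 h. Socs3, which damps cytokine signalling through Stat3, went from 1.01 to 28.3 FPKM (adjusted p = 5.82e-06), Klf4 from 1.14 to 4.46 (adjusted p = 0.00361), and Rtn4r, the Nogo receptor, fell from 52.8 to 22.9 (adjusted p = 0.00812). At 48 h Socs3 and Rhoa rose and Epha4 and Sema3a fell.

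**Figure D5:**
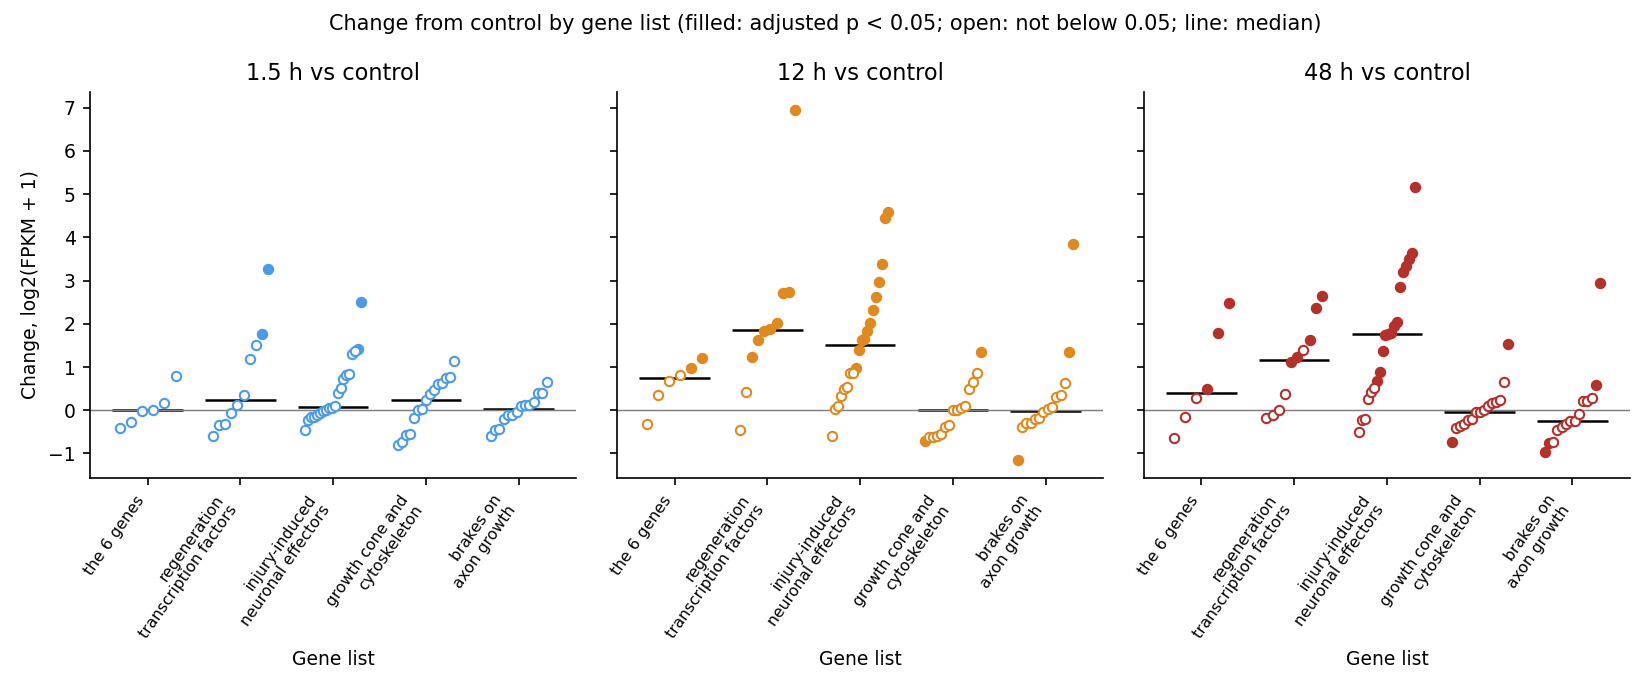
Change from control on the log2(FPKM + 1) scale (y axis) of the 6 genes and of 4 lists of related genes (x axis) at 1.5 h, 12 h and 48 h; each point is a gene, filled where the adjusted p is below 0.05, and the line is the list's median. At 12 h the medians are 0.75 for the 6 genes, 1.85 for the transcription factors and 1.51 for the effectors, and those of the growth cone genes and brakes are near 0.

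The genes whose log2 levels ran most closely with each of the 6 over the 12 libraries were named by Pearson correlation, as a description. Only tested genes with a mean of at least 1 FPKM over the 12 libraries were considered. For Sprr1a they were Capg (0.986), Ctsc and Fcgr2b, which are expressed in macrophages and microglia. For Ecel1 they were Tmem173 (0.971), Twf1 and Ncl. Sox11 ran closest with Snora17 (0.982), a small nucleolar RNA, and with Cyp51 and Sc5d, enzymes of cholesterol synthesis. Flrt3 ran closest with Cdc42ep3 (0.942), S1pr1 and Dennd1a, Stmn4 with Nsmce3 (0.977), Slc25a28 and Ube2g2, and Gap43 with Qpct (0.937), Dus2 and A730017C20Rik. The libraries share groups and normalization, and of these 18 genes 14 were among the 3 closest with a pseudocount of 0.1 and 3 without 1.5 h replicates 1 and 3.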

How the data were processed

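The authors deposited FPKM values of 54532 genes in 12 libraries. The submitters' processing notes name Bowtie 0.12.2 and mm8; 98.33% of the 54409 gene identifiers shared with GENCODE M21 have its GRCm38 positions, which are given. FPKM times gene length gave whole reads for 100% of values (tolerance 0.05). The deposited scaling totals were 0.773 to 1.15 times those reads, so the values carry a scaling between libraries whose method is not given in the sources used here. One 12 h column bears no number of the labels and is called the unnumbered library.

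Levels were tested as log2(FPKM + 1), which understates changes of low genes, with limma 3.58.1 (R 4.3.3), its trend option and all 12 libraries, on 17664 genes above 0.5 FPKM in at least 3 libraries, with Benjamini-Hochberg adjustment over all of them (FDR 0.05); the code was tested on simulated data. A count of 0 was bounded by 3 reads, which covers counting error only. Members and lists were chosen with earlier results of these data known; the related genes were fixed lists, the 3 closest genes per member were named by correlation, and the comparison with family relatives was added after seeing the data. Alternatives were another pseudocount, filters, scalings, models, limma-voom, the replicate block and left-out libraries.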

Additional observations from a re-analysis of the deposited data

Results flagged for a closer look

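The changes from control of 5 of the 6 genes differed between times after PDT, by limma's test of the difference between treated groups (adjusted over 17664 genes), and each is given here as a log2 change with no explanation. From 1.5 h to 12 h the change was 0.97 for Sprr1a (adjusted p = 0.00816), 1.21 for Sox11 (adjusted p = 0.00023), 1.08 for Ecel1 (adjusted p = 0.0165) and 0.61 for Flrt3 (adjusted p = 0.0362). The call of Flrt3 was lost in 9 of 23 alternatives, among them leaving out control replicate 1, 1.5 h replicate 1 or 3, or 12 h replicate 1 or 2. That of Ecel1 was lost in 4, which include leaving out 1.5 h replicate 1 or the unnumbered 12 h library. That of Sprr1a was lost in 2, 1 of them the replicate block. The calls of Sprr1a, Ecel1 and Flrt3 were each lost on leaving out 1.5 h replicates 1 and 3 together, which leaves 1 library at 1.5 h.

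From 12 h to 48 h the change was 1.52 for Sprr1a and 1.11 for Ecel1, and -0.7 for Sox11, -0.99 for Flrt3 and -0.99 for Stmn4. Among these, those of Sox11 and Flrt3 were lost with the replicate block alone, and that of Sprr1a held in all 23.

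From 1.5 h to 48 h the change was 2.49 for Sprr1a (adjusted p = 4.34e-05), 0.51 for Sox11 (adjusted p = 0.0272), 2.19 for Ecel1 (adjusted p = 0.000644) and -0.96 for Stmn4 (adjusted p = 0.0343). The call of Stmn4 was lost in 13 of 23 alternatives, among them leaving out any control library, 1.5 h replicate 1 or 3, or any 48 h library, and that of Sox11 in 9, among them leaving out 1.5 h replicate 3 or any 48 h library.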

How the results depend on the processing

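Of 828 changes of single members recomputed, 736 kept their side of the threshold, 65 lost and 27 gained a call, and 0 called changes turned direction; 14 of the 736, uncalled changes of Gap43, Sox11 and Stmn4 in comparisons with the 1.5 h group, had the other sign; the rises of Sprr1a and Ecel1 at 48 h and of Sox11 at 12 h against control held in all 23 alternatives. Counts over all tested genes moved far more. At 1.5 h against control, 98 genes were called. This was 27 without the filter, 36 scaled to library totals and 49 with limma-voom. It was 5 with only the compared groups and 4 with the replicate block. Leaving out 1 library gave 9 to 8080, the highest without 1.5 h replicate 2, and 0 to 1 members. With only the compared groups, the calls were 7279 in place of 3737 (12 h against control), 3789 in place of 2209 (48 h against control), 2384 in place of 5873 (12 h against 1.5 h) and 559 in place of 3141 (48 h against 1.5 h), the last with 2 members in place of 4, as also without the filter. With 1 library left out, the same counts ran from 2096 to 5726, 1207 to 4178, 3367 to 9661 and 1827 to 7823, 48 h against 12 h from 1350 to 4935 (2757 with all) and the overall test from 3975 to 12354 (6786 with all); each highest count was without 1.5 h replicate 2, and the lowest were without 12 h replicate 2, control replicate 2 or 48 h replicate 4. Members called ran from 2 to 5 (12 h against 1.5 h), 3 to 6 (48 h against 12 h) and 2 to 4 (48 h against 1.5 h). Leaving out 1.5 h replicates 1 and 3 together gave 6214, 4704, 2427 (2 members) and 5421 calls for 12 h and 48 h against control, 12 h against 1.5 h and 48 h against 12 h, 2 members for 48 h against 1.5 h, and 3 of the 18 closest genes.

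No pairing of the libraries by replicate number was seen, and deviations from group means of 3 libraries cannot exclude it. Over 11 pairs with the same number, these deviations had a median correlation of -0.004 (-0.264 to 0.156). Of 11 libraries, 1 correlated best with its own number. The replicate block, on numbered libraries alone, gave 1321 calls and 1 member at 12 h, 724 calls at 48 h, 1134 and 1 member for 12 h against 1.5 h, 470 and 1 member for 48 h against 12 h, 866 and 2 members for 48 h against 1.5 h, and 1534 and 3 members in the overall test; the fit has fewer libraries. For the other changes named here the cause was not tested. Scaling to library totals moved the median change of all genes by -0.15 (1.5 h against control), 0.12 (48 h against 12 h) and 0.2 (48 h against 1.5 h), and the share of calls that were rises from 62.7% to 50.4% at 12 h against control, from 59.9% to 72.4% at 48 h, from 37.6% to 64.7% for 48 h against 12 h and from 50.1% to 80.9% for 48 h against 1.5 h; quantile normalization gave 47.2% at 12 h and 49.6% for 48 h against 12 h. Depth limits Sprr1a most, with 6 to 18 reads in the 12 h libraries.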
